A study of Rattus norvegicus with 8 samples.

Results

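Small leucine-rich proteoglycans (SLRPs) are secreted matrix proteins with a core of leucine-rich repeats, most of which carry glycosaminoglycan chains. The genes described here are Dcn, Bgn, Aspn, Fmod, Lum, Prelp, Omd, Ogn and Podn, chosen as 9 named members of this family. Of the 31699 rows of the gene table, 7 carried the symbol of a member. The row of Ogn carried the placeholder name NEWGENE_1308171 and was matched by its description as osteoglycin. No row was found for Podn by its symbol or by a description as podocan, which left 8 genes. RNA-seq was performed on annulus fibrosus cells (AFCs) of Sprague Dawley rats, as 4 Lv-Ctrl and 4 Lv-Piezo1 samples. The annulus fibrosus is the collagen-rich outer ring of the intervertebral disc. Cells of the Lv-Ctrl group received the lentiviral vector pLVX-shRNA-Puro, and those of the Lv-Piezo1 group received pLVX-shRNA-Puro-Piezo1, which carries 1 short hairpin RNA against the mechanosensitive channel gene Piezo1. In both groups the infection lasted 24 h at a multiplicity of infection of 20, and both were exposed to cyclic mechanical stretch (CMS), at 20% elongation and 0.5 Hz for 36 h according to the methods of the study. Annulus tissue of 8 rats was pooled for each cell isolation, and the cells were used in the third generation of culture. The methods name male rats aged 3 months for the animal model and give no separate age or sex for the rats whose cells were isolated. Both groups were stretched, so no comparison with cells without stretch could be made.

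SLRPs bind to the surface of collagen fibrils and help to set fibril diameter and spacing, which makes them prominent in tissues under tension such as tendon and annulus. Class I members (decorin, biglycan and asporin) mostly carry chondroitin or dermatan sulfate chains, class II members (fibromodulin, lumican, PRELP and osteomodulin) mostly carry keratan sulfate or tyrosine sulfate, and osteoglycin belongs to class III. Decorin and biglycan also bind growth factors of the TGF-beta family and several cell surface receptors.

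The values were TPM, transcript abundances scaled for transcript length and to a fixed total per sample, so that levels can be compared between genes. Sequencing depth cannot be read from TPM and is unknown here, so precision is judged from the 4 samples of each group. Groups were compared with limma on log2(TPM + 1), where changes of low genes come out too small, in the 13103 genes whose mean TPM reached 1. A gene was called at a Benjamini-Hochberg adjusted p below 0.05 together with a log2 fold change of at least 1 in size. Here, rose and fell are used of genes with an adjusted p below 0.05, whether or not the fold change was reached. All tested genes together had a median log2 fold change of 0.14 toward the samples labelled Lv-Piezo1, and median-ratio scaling of the samples brought this median to -0.0046. Of all called genes, 64.1% were higher as deposited, 52.3% with median-ratio scaling and 48.8% with quantile normalization. Piezo1 itself was higher in the samples labelled Lv-Piezo1 (39.4 ± 1.75 TPM) than in those labelled Lv-Ctrl (30.1 ± 2.67 TPM, SD, n = 4 each), so every direction below is that of the labels. Type I collagen genes and Scx, a tendon and annulus transcription factor, were expressed in all samples. Tnmd, a marker of mature tendon, was listed at 0 in the samples labelled Lv-Ctrl and averaged 0.02 TPM in those labelled Lv-Piezo1.

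The transcripts of this family moved apart. In the samples labelled Lv-Piezo1 the mean TPM of Dcn fell by 64.4% and that of Fmod fell by 50.3%. Prelp rose by 60.8% and Bgn by 26.9%. Lum, Aspn and Ogn lay within 10% of their mean in the samples labelled Lv-Ctrl, and Omd was near the limit of testing in both groups. All 8 genes passed the filter on low TPM, and 1 of them (12.5%), Dcn, was called, beside 7.67% of all tested genes, 4.91% higher and 2.76% lower. By the adjusted p alone, which 58.2% of all tested genes passed, 2 SLRP genes rose (41.9% of all tested genes), 3 fell (16.3%) and 3 did not pass. The groups did not overlap in 5 of the 8 genes, 2 higher and 3 lower, beside 54.2% of all tested genes, 39.8% higher and 14.5% lower. After median-ratio scaling, a comparison added after the values were seen, they did not overlap in 7 genes, 2 higher and 5 lower with Ogn as the exception, beside 51.4% of all tested genes, 26% higher and 25.3% lower. Omd is among these counts and passed the filter only through the group where it was higher. With 8 genes, nothing particular to the family is read from these shares. The median log2 fold change of the 8 genes was -0.0080, and 6 of them lay below the median of all tested genes. The cells were measured in bulk, so fewer cells of a type and less RNA per cell cannot be told apart.

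**Figure D1:**
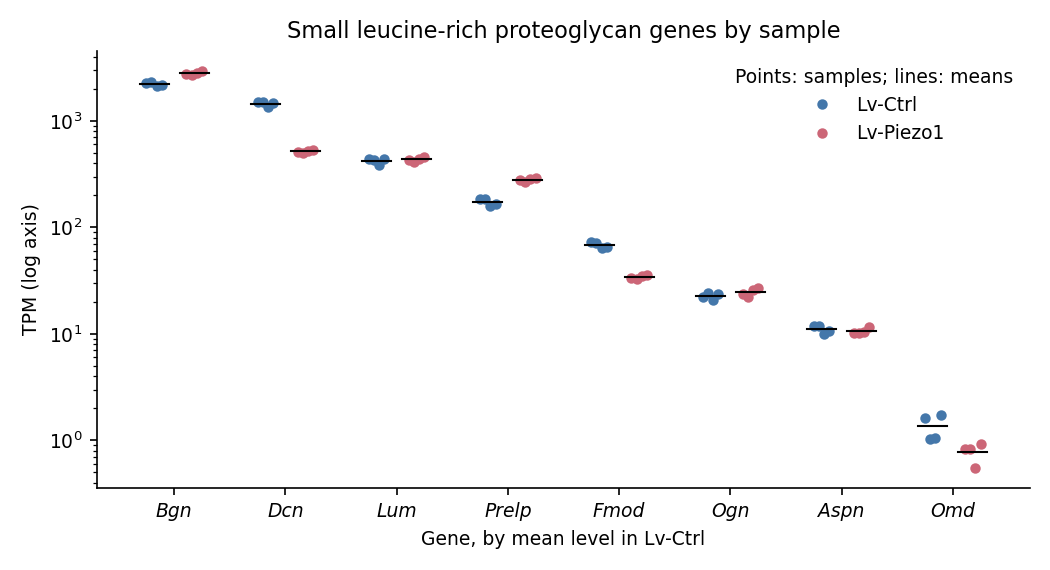
TPM on a log axis of each SLRP gene in the 4 Lv-Ctrl and the 4 Lv-Piezo1 samples, with lines at the means. Dcn and Fmod sit lower and Prelp and Bgn higher in the samples labelled Lv-Piezo1, while the order of the 8 genes by mean level is the same in both groups.

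The mean levels of the family ran from 1.36 TPM (Omd) to 2219 TPM (Bgn) under the Lv-Ctrl label. In the samples labelled Lv-Ctrl the order from the highest to the lowest mean was Bgn, Dcn, Lum, Prelp, Fmod, Ogn, Aspn and Omd. The same order was found in the samples labelled Lv-Piezo1, and in neither group did the sample ranges of neighbours in this order overlap. The distances changed. Dcn stood 3.45-fold above Lum in the samples labelled Lv-Ctrl and 1.19-fold above it in those labelled Lv-Piezo1. Prelp stood 2.54-fold above Fmod in the former and 8.22-fold above it in the latter. Among the 13103 tested genes, Bgn ranked 52 by mean TPM under the Lv-Ctrl label and 35 under the Lv-Piezo1 label, while Dcn ranked 108 and 289.

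Dcn encodes decorin, which binds type I collagen and limits the lateral growth of fibrils, and which also sequesters TGF-beta. Dcn (ENSRNOG00000004554) measured 1491, 1498, 1352 and 1483 TPM in the Lv-Ctrl replicates 1 to 4. In the Lv-Piezo1 replicates 1 to 4 it measured 514, 501, 523 and 537 TPM. Every sample of the second group lay far below the lowest of the first. The difference was -1.49 on the log2 scale (standard error 0.04, limma adjusted p = 7.9e-09), and by an exact permutation test of the sample labels the two-sided p was 0.029, which is as small as this design can give. Of the 1402 tested genes whose Lv-Ctrl mean reached 100 TPM, 35 had a log2 fold change as low as that of Dcn or lower, Dcn included.

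Bgn encodes biglycan, the closest relative of decorin, which is also released as a signal to innate immune receptors. Bgn (ENSRNOG00000055962) measured 2291, 2296, 2104 and 2186 TPM in the Lv-Ctrl replicates 1 to 4. It measured 2752, 2719, 2831 and 2965 TPM in the Lv-Piezo1 replicates 1 to 4. The groups did not overlap, and the gap between them was larger than the range within the Lv-Ctrl group. Its log2 fold change was 0.34 (standard error 0.04, limma adjusted p = 8.2e-05; exact two-sided permutation p = 0.029), which lies below the fold change for a call. After median-ratio scaling it was 0.18, a rise of smaller size.

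Aspn encodes asporin, a class I member with a run of aspartate residues that competes with decorin for collagen. Aspn (ENSRNOG00000015410) measured 11.9, 11.8, 9.94 and 10.7 TPM in the Lv-Ctrl replicates 1 to 4. It measured 10.2, 10.2, 10.4 and 11.7 TPM in the Lv-Piezo1 replicates 1 to 4, inside the range of the other group. Its log2 fold change was -0.06, with a 95% interval from -0.22 to 0.10 (limma adjusted p = 0.50). Relative to other genes the picture differed, since after median-ratio scaling the log2 fold change was -0.21 (adjusted p = 0.0085) and with quantile normalization -0.24 (adjusted p = 0.0031), while over the 16 refits the adjusted p ran from 0.0031 to 0.81.

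**Figure D2:**
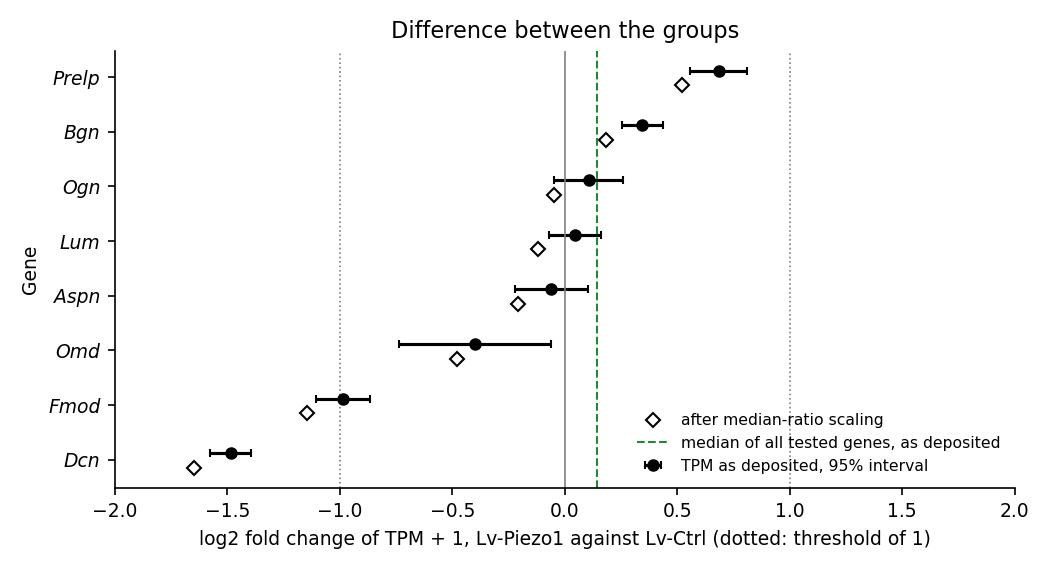
Log2 fold change of each SLRP gene (samples labelled Lv-Piezo1 against Lv-Ctrl) on the deposited TPM with its 95% interval (filled circles) and, without an interval, after median-ratio scaling (open diamonds); dotted lines mark the fold change for a call and the dashed line the median of all tested genes, 0.14. Dcn lies beyond -1, Fmod beside it, and the open symbols of Lum and Ogn lie on the other side of 0 from the filled ones.

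Fmod encodes fibromodulin, a class II member that promotes the maturation of collagen fibrils and guides lysyl oxidase to its crosslinking sites. Fmod (ENSRNOG00000003183) measured 72.9, 71.5, 63.7 and 65.6 TPM in the Lv-Ctrl replicates 1 to 4. It measured 33.1, 32.6, 34.7 and 35.6 TPM in the Lv-Piezo1 replicates 1 to 4, and the groups were far apart. On the log2 scale the difference was -0.99 (standard error 0.05, limma adjusted p = 5.5e-07; exact two-sided permutation p = 0.029), just short of the fold change for a call. Fmod was called, with a log2 fold change of -1.15, after median-ratio scaling, and also without Lv-Ctrl replicate 3 (-1.02), Lv-Ctrl replicate 4 (-1.01) or Lv-Piezo1 replicate 4 (-1.01). The number of called SLRP genes, 1 or 2, therefore turned on Fmod.

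Lum encodes lumican, which binds the same region of type I collagen as fibromodulin and is known for its part in the ordered fibrils of the cornea. Lum (ENSRNOG00000004610) measured 438, 426, 384 and 440 TPM in the Lv-Ctrl replicates 1 to 4 and 429, 414, 437 and 460 TPM in the Lv-Piezo1 replicates 1 to 4. The ranges overlapped. The log2 fold change was 0.04, with a 95% interval from -0.07 to 0.16 (limma adjusted p = 0.48). It turned to -0.12 after median-ratio scaling (adjusted p = 0.020), while over the 16 refits the adjusted p ran from 0.020 to 0.996.

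Prelp encodes a proline- and arginine-rich member that anchors basement membranes to the underlying collagen and binds heparan sulfate. Prelp (ENSRNOG00000003120) measured 186, 184, 159 and 166 TPM in the Lv-Ctrl replicates 1 to 4. It measured 276, 267, 286 and 289 TPM in the Lv-Piezo1 replicates 1 to 4. The lowest sample of the second group stood well above the highest of the first. The log2 fold change was 0.68 (standard error 0.06, limma adjusted p = 8.2e-06; exact two-sided permutation p = 0.029), below the fold change for a call, and it was 0.52 after median-ratio scaling.

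Omd encodes osteomodulin, a class II member best known from bone. Omd (ENSRNOG00000039560) measured 1.62, 1.03, 1.06 and 1.74 TPM in the Lv-Ctrl replicates 1 to 4 and 0.82, 0.82, 0.55 and 0.93 TPM in the Lv-Piezo1 replicates 1 to 4. The groups did not overlap, but they came within 0.1 TPM of each other. The log2 fold change was -0.40 (standard error 0.15, limma adjusted p = 0.044; exact two-sided permutation p = 0.029). On the log2 scale it was -0.72 with a pseudocount of 0.1 and -0.66 with quantile normalization. The mean passed the filter only through the samples labelled Lv-Ctrl. The adjusted p was below 0.05 in 8 of 15 refits and reached 0.10 without Lv-Ctrl replicate 4, at a log2 fold change of -0.32.

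Ogn encodes osteoglycin, the class III member, also called mimecan. Ogn (ENSRNOG00000029792) measured 22.1, 24.2, 20.9 and 23.7 TPM in the Lv-Ctrl replicates 1 to 4 and 23.6, 22.3, 25.5 and 26.7 TPM in the Lv-Piezo1 replicates 1 to 4. The ranges overlapped. The log2 fold change was 0.11, with a 95% interval from -0.05 to 0.26 (limma adjusted p = 0.21), and it turned to -0.050 after median-ratio scaling and to -0.027 with quantile normalization.

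For 6 of the 9 members a RefSeq promoter window of assembly GRCr8 was at hand, those of Aspn, Fmod, Lum, Omd, Ogn and Podn, each from 250 bases before to 50 bases after the annotated start. Among these, Fmod fell, and Omd had a lower mean under the Lv-Piezo1 label, with the limits given above. The 150 bases before their starts are shown so that these 2 upstream regions can be compared, at chr13:48045417-48045566 (plus strand) and chr17:15274871-15275020 (minus strand), with capitals for the only match in them to the motifs named next.
Fmod: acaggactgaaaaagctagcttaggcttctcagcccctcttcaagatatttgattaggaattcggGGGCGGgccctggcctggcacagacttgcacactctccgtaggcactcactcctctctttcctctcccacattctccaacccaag
Omd: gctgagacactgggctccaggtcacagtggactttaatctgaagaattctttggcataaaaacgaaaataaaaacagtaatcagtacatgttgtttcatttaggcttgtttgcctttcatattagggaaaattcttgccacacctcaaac
Both strands were searched. The GC box GGGCGG was found in the window of Fmod and not in that of Omd, and 33.1% of all 33469 windows held it. The letters TATAAA (14.2% of all windows), TGANTCA of AP-1 (7.33%), GGAATG of TEAD factors (14.2%), CAGACA of SMAD factors (21.1%), CANNTG of the E-box (72.1%) and the CArG box (1.64%) were found in neither window. A match of letters is a description of the sequence, and its absence concerns these windows only.

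Several SLRP genes lie side by side in the rat genome, which allowed neighbours to be compared. In the RefSeq gene order of GRCr8, Dcn was followed by Lum, Kera and Epyc with no other protein-coding gene between them. Dcn fell, while the adjacent Lum overlapped between the groups. Kera (keratocan, mean 0.545 TPM under the Lv-Ctrl label and 0.285 TPM under the Lv-Piezo1 label) and Epyc (epiphycan, 0.128 and 0.080 TPM) were too low to be tested. In a second cluster, Optc, Prelp and Fmod were adjacent among protein-coding genes. Prelp rose and Fmod fell, and the Prelp to Fmod ratio was 2.49 to 2.57 in the samples labelled Lv-Ctrl and 8.13 to 8.33 in those labelled Lv-Piezo1, a description chosen after the values were seen. Ogn, Omd and Aspn form another cluster, in which all 3 genes overlap Cenpp in the annotation. Dcn, Fmod and Prelp each overlap an annotated long noncoding RNA. Whether reads were counted by strand is not given in the sources used here, so reads of overlapping genes may be shared.

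Ratios between members within a sample do not depend on how that sample was scaled. Of 3 such ratios, all differed between the groups in the exact two-sided permutation test (p = 0.029 each, 0.029 after Benjamini-Hochberg adjustment over the 3 ratios, the smallest value possible here). The Bgn to Dcn ratio, of the closely related class I pair, was 1.53 ± 0.04 under the Lv-Ctrl label and 5.43 ± 0.07 under the Lv-Piezo1 label (SD, n = 4 each), a 3.56-fold higher ratio. It was 1.54, 1.53, 1.56 and 1.47 in replicates 1 to 4 of the former and 5.36, 5.42, 5.41 and 5.53 in those of the latter. The Fmod to Lum ratio, of the class II pair that shares a collagen site, was 0.162 ± 0.00885 and 0.0782 ± 0.00100, so that in the samples labelled Lv-Piezo1 there was 0.482 times as much Fmod per Lum. The Aspn to Dcn ratio was 0.00761 ± 0.000389 and 0.0204 ± 0.000935, a 2.68-fold higher ratio. In each of the 3 ratios the samples of one group lay far outside the range of the other. Dcn is shared by the Bgn to Dcn and Aspn to Dcn ratios, and Lum and Aspn overlapped between the groups. The ratios therefore largely restate the differences of single genes given above and are not separate findings.

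**Figure D3:**
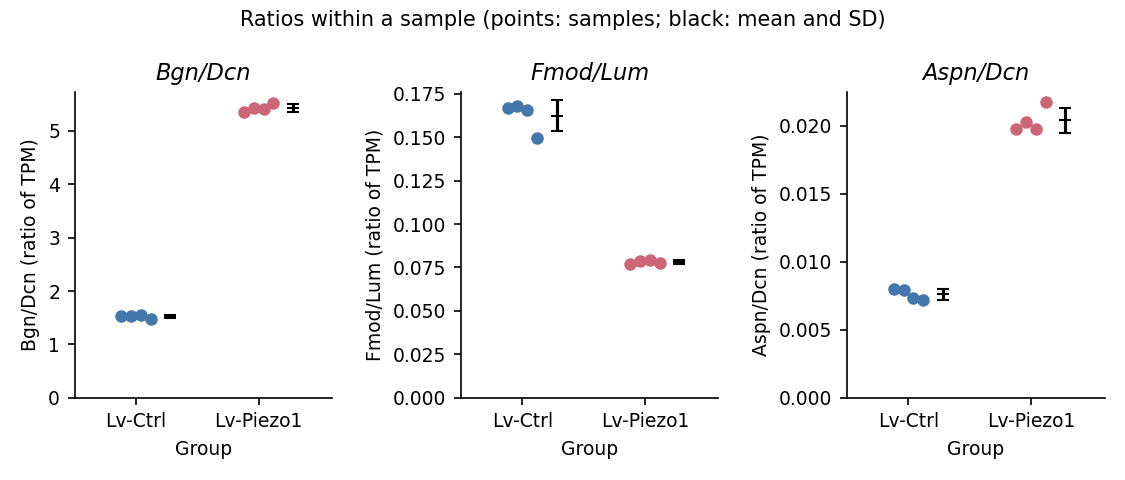
TPM ratios of Bgn to Dcn, Fmod to Lum and Aspn to Dcn within each sample, on linear axes from 0, with the mean and SD of each group of 4 samples in black. The Bgn to Dcn ratio runs from 1.47 to 1.56 under the Lv-Ctrl label and from 5.36 to 5.53 under the Lv-Piezo1 label.

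The makeup of the family by transcript number shifted. As deposited, the summed TPM of the 8 genes was 4096 to 4515 in the samples labelled Lv-Ctrl and 3967 to 4325 in those labelled Lv-Piezo1, with overlapping ranges. After median-ratio scaling, computed after the values were seen, the sums were 4564 to 4656 and 3814 to 3986, and the ranges did not overlap. The shares do not depend on this scaling. Bgn made up 50.7% ± 0.59 of this sum in the samples labelled Lv-Ctrl and 68.4% ± 0.20 in those labelled Lv-Piezo1. The share of Dcn went from 33.3% ± 0.41 to 12.6% ± 0.14, and that of Prelp from 3.97% ± 0.16 to 6.78% ± 0.09. Lum held 9.64% ± 0.30 and 10.6% ± 0.09 (SD, n = 4 each). Fmod held 1.56% and 0.825%, and Ogn, Aspn and Omd each stayed under 1% of the sum in both groups. These shares describe the transcripts, without a test, and do not give the amounts of protein in the matrix.

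**Figure D4:**
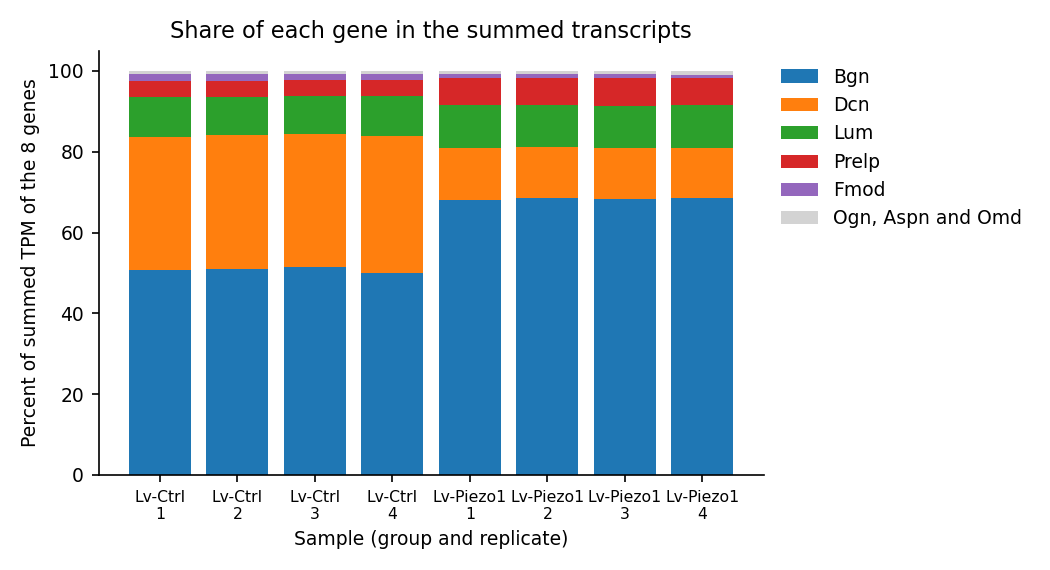
Share of each SLRP gene in the summed TPM of the 8 genes, in percent, for each of the 8 samples. Bgn holds about 50.7% of the sum in the samples labelled Lv-Ctrl and 68.4% in those labelled Lv-Piezo1, and Dcn 33.3% and 12.6%.

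Set against Col1a1, the main fibrillar collagen chain, Dcn, Bgn, Fmod, Lum and Prelp had lower means in the samples labelled Lv-Piezo1. These ratios were chosen after the values were seen and carry no test. Col1a1 itself rose from 3282 to 5835 TPM, so a gene with like levels in both groups also comes out lower per Col1a1. Bgn and Prelp rose, though by less than Col1a1. Dcn per Col1a1 went from 0.444 ± 0.00875 to 0.0889 ± 0.00127 (SD, n = 4 each). The change was -72.1% for Fmod per Col1a1, -42.0% for Lum per Col1a1 and -28.6% for Bgn per Col1a1. Prelp per Col1a1 went from 0.0507 to 0.0561 in the samples labelled Lv-Ctrl down to 0.0468 to 0.0489 in those labelled Lv-Piezo1, a narrow gap. The 8 members together held 1.33 ± 0.02 TPM per TPM of Col1a1 in the first group and 0.706 ± 0.02 in the second.

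The SLRP genes outside the list of members were mostly scarce. Of 8 such genes, 4 were tested. Of these, 2 were called, both higher, beside 7.67% of all tested genes, 4.91% higher. By the adjusted p 3 rose, beside 41.9% of all tested genes. Tsku (tsukushi, a class IV member that binds BMP and Wnt proteins) rose from 26.0 ± 1.41 to 39.6 ± 1.98 TPM. Podnl1 (podocan-like 1) had 15.3 ± 0.558 and 15.7 ± 0.877 TPM (log2 fold change 0.04, limma adjusted p = 0.58), turning to -0.12 after median-ratio scaling. Nyx (nyctalopin, a retinal member) was called at 0.398 and 2.20 TPM and Optc (opticin) at 0.758 and 2.51 TPM, and both passed the filter only through the samples labelled Lv-Piezo1. The call of Optc was lost after median-ratio scaling (log2 fold change 0.93). Kera, Epyc, Chad and Ecm2 stayed below 1 TPM in all samples.

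Collagens that SLRPs bind were in the main higher. Of 12 tested genes of this list, 8 rose (41.9% of all tested genes), 1 fell (16.3%) and 3 did not pass the adjusted p. Their median log2 fold change was 0.43, beside 0.14 for all tested genes. After median-ratio scaling 7 were higher and 3 lower by the adjusted p. Of the 12 genes, 2 were called (16.7%), beside 7.67% of all tested genes. Col1a1 rose from 3282 ± 137 to 5835 ± 103 TPM, Col1a2 from 2316 ± 141 to 3795 ± 159 TPM and Col3a1 from 188 ± 13.8 to 262 ± 13.6 TPM (SD, n = 4 each). Called were Col5a2, a chain of the fibril-nucleating type V collagen, with a log2 fold change of 1.03 (0.87 and no longer called after median-ratio scaling), and Col12a1, a fibril-associated collagen, with -1.59 (limma adjusted p = 1.2e-06). Of the 9 tested genes of collagen crosslinking, limma called 0, 7 rose and 1 fell (5 and 1 after median-ratio scaling), and 8 had an unadjusted p below 0.05. Lox, the lysyl oxidase that fibromodulin binds, had 834 ± 269 and 806 ± 141 TPM (log2 fold change 0.01, standard error 0.25), and its direction turned after median-ratio scaling to -0.16.

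Growth factors bound by decorin, biglycan, asporin or fibromodulin moved both ways. Of 11 tested genes, 6 were called (54.5%), 4 higher and 2 lower, beside 7.67% of all tested genes, 4.91% higher and 2.76% lower. This list was chosen with earlier results of these data known, so nothing particular to it is read from this share. After median-ratio scaling 6 were called as well, with Bmp2 lower (log2 fold change -1.14, and -0.996 as deposited) in place of Tgfb2. Tgfb3 rose from 60.7 ± 1.80 to 426 ± 10.7 TPM, a log2 fold change of 2.79 (limma adjusted p = 6.6e-11). Tgfb2 rose from 14.2 ± 1.34 to 30.3 ± 1.35 TPM and was no longer called after median-ratio scaling (log2 fold change 0.89). Tgfb1 had 169 ± 5.05 and 171 ± 2.92 TPM and a log2 fold change of 0.02, which turned to -0.14 after median-ratio scaling. Ccn2, the connective tissue growth factor, rose by 1.68 and Bmp4 by 1.21 on the log2 scale. Mstn (myostatin), which decorin binds, had a log2 fold change of -2.57, and Bmp6 one of -1.19. Dcn thus fell in the samples in which Tgfb3 and Ccn2 rose, and whether these differences are linked was not tested.

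Receptors that SLRPs engage showed smaller differences. Of 12 tested genes, limma called 0, and 6 had an unadjusted p below 0.05. By the adjusted p, 5 rose (41.9% of all tested genes) and 0 fell (16.3%). This balance turned with the scaling, since after median-ratio scaling 2 were higher and 4 lower by the adjusted p. Egfr, a receptor for decorin, had 3.41 ± 0.435 and 4.29 ± 0.262 TPM (log2 fold change 0.27, limma adjusted p = 0.031), and after median-ratio scaling a log2 fold change of 0.14 (adjusted p = 0.15). Tlr2 and Tlr4, the innate immune receptors of biglycan, had 4.83 ± 0.437 and 5.42 ± 0.227 TPM and 3.27 ± 0.432 and 3.25 ± 0.339 TPM, with log2 fold changes of 0.14 and -0.01 (limma adjusted p = 0.12 and 0.97).

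Enzymes that build and sulfate the chains of SLRPs were tested for 25 genes. Of these, 3 were called (12%), all higher, beside 7.67% of all tested genes, 4.91% higher. B4galt4, a galactosyltransferase that acts in keratan sulfate synthesis, rose from 76.1 ± 15.9 to 251 ± 40.9 TPM. Chst5, a sulfotransferase, rose from 1.73 ± 0.428 to 5.88 ± 0.701 TPM, and Chsy3, a chondroitin synthase, from 5.39 ± 0.816 to 14.0 ± 0.832 TPM (SD, n = 4 each). By the adjusted p, 15 genes of this list rose (41.9% of all tested genes), 3 fell (16.3%) and 7 did not pass. After median-ratio scaling 12 were higher and 6 lower by the adjusted p.

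Proteases that cleave SLRPs included some of the more abundant transcripts that fell. Of 11 tested genes, 4 were called (36.4%), 1 higher and 3 lower, beside 7.67% of all tested genes, 4.91% higher and 2.76% lower. The median log2 fold change of the list was -0.23. By the adjusted p, 4 rose (41.9% of all tested genes) and 5 fell (16.3%). After median-ratio scaling 3 were higher and 7 lower, with a median of -0.39. Mmp13 (collagenase 3) fell from 888 ± 57.3 to 227 ± 14.3 TPM and Mmp3 (stromelysin 1) from 659 ± 17.9 to 232 ± 5.33 TPM. Tll1, of the same family as Bmp1, fell by 1.16 on the log2 scale. Mmp9 (gelatinase B) rose from 4.51 ± 0.532 to 24.4 ± 1.31 TPM. Bmp1, which processes the propeptide of biglycan, rose by 0.40 on the log2 scale (limma adjusted p = 1.3e-05).

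**Figure D5:**
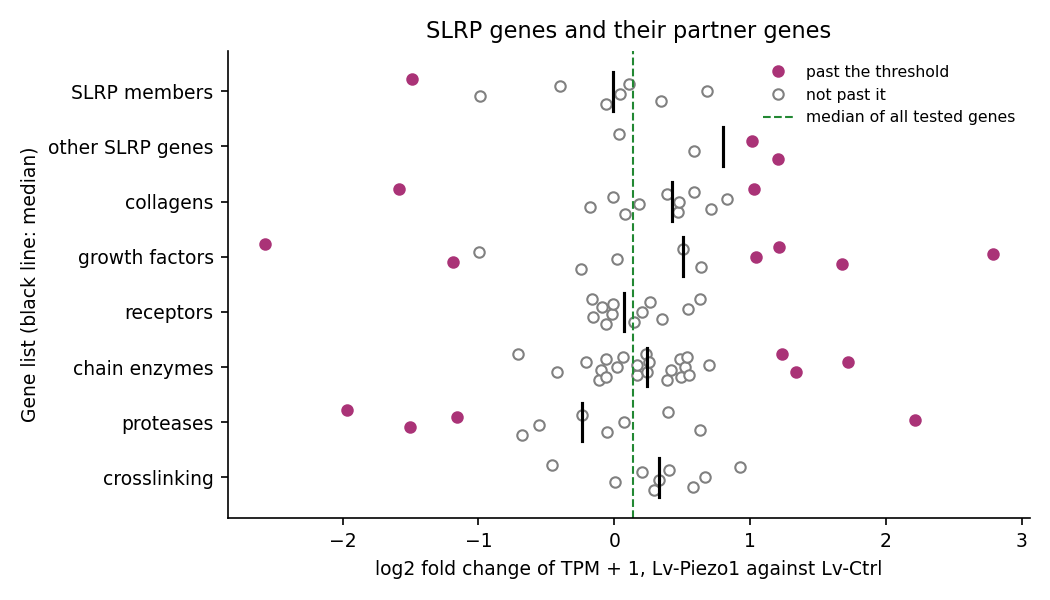
Log2 fold change (samples labelled Lv-Piezo1 against Lv-Ctrl) of every tested gene of the SLRP list and of 7 lists of related genes; filled points are called, black lines are list medians and the dashed line is the median of all tested genes. The called genes of the growth factor and protease lists lie on both sides of 0, and no receptor or crosslinking gene is called.

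Markers of other cell types moved with the groups. For comparison, 7.67% of all tested genes were called, 41.9% rose and 16.3% fell. All 9 smooth muscle markers rose (8 after median-ratio scaling) and 7 were called, with a summed level of 438 to 453 TPM under the Lv-Ctrl label and 4610 to 4782 TPM under the Lv-Piezo1 label. Of 7 pericyte markers, 5 were tested, of which 1 was called higher (Mcam) and 2 lower (Kcnj8 and Abcc9), with sums of 520 to 561 and 276 to 293 TPM. These sums mainly follow Kcnj8 (326 and 39.1 TPM) and Abcc9 (73.7 and 12.3 TPM). As deposited, Cspg4 (29.5 and 51.1 TPM) and Pdgfrb (106 and 118 TPM) rose without a call. Of the fibroblast and tendon markers, 4 of 9 were called, Thbs4 higher and Pdgfra, Fap and Cilp lower, with sums of 5625 to 6375 and 10188 to 10881 TPM. The fibroblast and tendon sums are mostly Col1a1 and Col1a2, and by the adjusted p 5 markers of this list rose and 4 fell. Among macrophage markers Cd68 was called higher (0.955 and 12.3 TPM), while Ptprc, Adgre1, Cd163 and Tyrobp were at or near 0 in both groups. Among endothelial markers Esam was called higher (0.203 and 5.68 TPM), while Cdh5 and Emcn were at or near 0. Both Cd68 and Esam passed the filter on low TPM only through the samples labelled Lv-Piezo1. The part of these differences in the SLRP values was not tested.

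By the root mean square difference of mean-centred log2(TPM + 1) values over the 8 samples, the 5 genes nearest to Dcn were Plekha5 (0.02), Tgfbi (0.03), Slc14a1 (0.05), Grem1 (0.06) and Fam169b (0.06). Tgfbi, a secreted matrix protein, had 809 and 297 TPM, and Grem1, a secreted BMP antagonist, 1742 and 644 TPM, each for the label Lv-Ctrl and then Lv-Piezo1. The 8 samples fall into 2 groups, so genes with a like difference between the groups rank as near.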

How the data were processed

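RNA-seq was analysed for 8 samples in 2 labelled groups. The authors filtered the reads, used HISAT2 to map them to a rat genome, and StringTie to assemble transcripts. The submitters' processing notes name mm10, a mouse build, whereas the gene identifiers are those of rat, and the annotation is not given in the sources used here. TPM of each gene and sample, computed and rounded by the authors, were deposited, with group means in 2 further columns that were not analysed. The methods name FPKM, and how TPM was derived is not stated.

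Log2(TPM + 1) of the genes whose mean TPM reached 1 was compared with limma 3.58.1 in R 4.3.3. The fit used empirical Bayes with a trend, no block, and Benjamini-Hochberg adjustment over 13103 genes. It was also run on simulated data in which genes varied independently. That simulation held no shift shared by the genes of a sample, so it does not bear on the scaling. Single genes and ratios were compared by exact permutation over 70 relabelings. The methods describe 4 biological repeats and count the cells of 1 isolation as 1 repeat, and the labels do not tie the sample numbers to isolations. Same-numbered samples did not deviate together (correlations of deviations -0.058 to -0.012).

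The members and gene lists were chosen with earlier results of these data known. Named beside the members are at most the 3 largest called rises and falls of a list, a few set partners, called and leading markers, and the 5 genes nearest to Dcn and to Omd. Further genes are named where a count or a sum turned on them. Alternatives were another pseudocount, filter, scaling, moderation or threshold, a replicate block, summed rows and leaving out each sample.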

Additional observations from a re-analysis of the deposited data

Results flagged for a closer look

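In 24 groups of 4 values (the 8 SLRP genes, Piezo1 and the 3 ratios, each in both groups), 3 held a sample far from the others, where chance gives about 1 in 20. In Dcn, Lv-Ctrl replicate 3 (1352 TPM) lay below the other samples, with a gap of 0.896 of the range of the group. In Aspn, Lv-Piezo1 replicate 4 (11.7 TPM) lay above the others, with a gap of 0.862 of the range. In the Fmod to Lum ratio, Lv-Ctrl replicate 4 (0.149) lay below the others, with a gap of 0.887 of the range. For Dcn and for the ratio this gap was smaller than the distance between the groups, while for Aspn the groups overlapped.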

How the results depend on the processing

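No alternative changed the direction or the call of Dcn (log2 fold change -1.65 to -1.42). Lum turned to -0.12 after median-ratio scaling, and Ogn to -0.050 there and to -0.027 with quantile normalization. Fmod was called with a pseudocount of 0.1 (-1.01), after median-ratio scaling (-1.15) and with quantile normalization (-1.09), where 2 SLRP genes were called in place of 1. Without a fold change threshold, 5 SLRP genes (Dcn, Fmod at -0.99, Bgn at 0.34, Prelp at 0.68, Omd at -0.40), Piezo1 (0.38) and 7626 genes in all were called, and 628 genes where a mean TPM of 5 was required, where fewer genes were tested and Omd was not. Leaving out 1 sample gave log2 fold changes of -1.52 to -1.47 for Dcn, 0.32 to 0.36 for Bgn, -1.02 to -0.96 for Fmod, 0.64 to 0.72 for Prelp, -0.47 to -0.32 for Omd (-0.72 with a pseudocount of 0.1 and -0.66 with quantile normalization), 1 or 2 called SLRP genes and 1006 to 1030 called genes in all. The replicate number as a block left the calls of the SLRP genes at 1 and those of all genes at 1004, gave Omd an adjusted p of 0.056 in place of 0.044, and in the paired exact permutation test of the ratios gave log2 differences of 1.83 for Bgn to Dcn, -1.05 for Fmod to Lum and 1.42 for Aspn to Dcn with a p of 0.125, the smallest that 4 pairs allow. The numbers are not shown to pair the samples. Sequencing depth is unknown, so low values such as those of Omd carry an unknown counting error.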

Other observations

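The level of the SLRP genes varied together among the samples of a group. As deposited, 7 of the 8 genes were lowest in Lv-Ctrl replicate 3 and all 8 were highest in Lv-Piezo1 replicate 4. The share of all tested genes with these patterns was not counted. The factor by which median-ratio scaling divides a sample was lowest in Lv-Ctrl replicate 3 (0.897) and highest in Lv-Piezo1 replicate 4 (1.085). Genes in general thus lay low in the former and high in the latter, and nothing particular to the family is read from the counts. After median-ratio scaling the counts of SLRP genes were 3 and 7. The coefficient of variation became smaller with this scaling in all 16 combinations of gene and group. Leaving Omd aside, it ran from 2.86% to 8.55% as deposited and from 1.05% to 6.20% after scaling.

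The 5 genes whose profile over the samples was nearest to that of Omd were Tada1 (root mean square log2 difference 0.12), Nr1d2 (0.12), Hsdl2 (0.12), Rpp14 (0.12) and Rpl39 (0.13). Among chondrocyte markers, Comp was called higher (0.738 and 2.86 TPM for the labels Lv-Ctrl and Lv-Piezo1). Comp passed the filter on low TPM only through the samples labelled Lv-Piezo1. Acan was the most abundant (31.6 and 47.1 TPM), and Col2a1 stayed below 1 TPM. By the adjusted p, 2 of the 4 tested chondrocyte markers rose, 1 fell (Hapln1, 10.7 and 7.73 TPM) and 1 did not pass (Sox9). Of the osteoblast markers 4 were tested and limma called 0 (3 at an unadjusted p below 0.05). By the adjusted p, Ibsp fell (199 and 151 TPM), Runx2 (5.65 and 7.73 TPM) and Dmp1 (1.66 and 3.89 TPM) rose, and Alpl did not pass. Bglap was listed at 0 in all samples. Of the notochordal markers Cd24 was called higher (3.79 and 21.9 TPM), while Tbxt, Shh and Noto were listed at 0. Krt8 (2.56 and 3.17 TPM) did not pass (limma adjusted p = 0.12), and Krt19 was not found by symbol. Of the 5 erythroid and epithelial markers, 3 had a row (Alas2, Epcam and Krt5), and these stayed below 1 TPM in all samples. Hbb and Krt14 were not found by symbol.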
